A study of Arabidopsis thaliana with 18 samples.

Results

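The genes followed here encode 10 members of the xyloglucan endotransglucosylase/hydrolase (XTH) family of Arabidopsis thaliana: XTH4 (AT2G06850), XTH9 (AT4G03210), XTH17 (AT1G65310), XTH18 (AT4G30280), XTH19 (AT4G30290), XTH20 (AT5G48070), XTH22 (AT5G57560, also TCH4), XTH23 (AT4G25810, also XTR6), XTH24 (AT4G30270, also MERI5) and XTH25 (AT5G57550). They were 10 of the 33 XTH genes and of the 27371 genes in the table of FPKM (fragments scaled by transcript length and by the mapped reads of the library), and all 10 were found by locus ID. They were selected on these FPKM values, with their levels across the groups in view, and which comparison led to the choice was not recorded. Their levels and differences are therefore descriptions and carry no p-value, and tests are given only for genes outside the selection. PolyA RNA was sequenced from 18 libraries of Col-0 plants, 3 in each of 6 groups, and every plant was 21 days old, germinated for 5 days and then grown for 16 days with 100 mM NaCl. Shoots came from plants with salt alone (WT), with salt and the endophytic Enterobacter strain SA187, or with salt and either 100 nM KMBA or 100 nM ACC. Roots came from the KMBA and the ACC plants. KMBA is a keto acid made by SA187 that plants can turn into ethylene, and ACC is the direct ethylene precursor of plants. All groups were 1 accession on salt medium, and no library without salt or root library without a compound was analysed here.

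XTH enzymes act in the cell wall on xyloglucan, the hemicellulose that coats and tethers cellulose microfibrils. They cut a xyloglucan chain and join the new end to another chain, and a few members mainly hydrolyse it, so that the wall can be loosened, built or repaired while a cell grows. Single members differ in organ and in trigger: XTH22 was first found as a gene switched on by touch and also responds to brassinosteroid, auxin and temperature, XTH17 to XTH20 are best known from the root, and XTH4 and XTH9 are best known from stems and woody tissue.

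XTH proteins are known for a catalytic stretch in which a glutamate, an aspartate and a second glutamate stand at every other position. The coding bases of that stretch, read from the TAIR10.1 genome (RefSeq) with the codons of these 3 residues in capitals, are shown for the 10 genes because this core is what the 10 genes have in common.
XTH4: catgacGAGataGACtttGAGttccttgga
XTH9: cacaacGAAttcGATtttGAGttcttaggg
XTH17: tgggatGAGatcGATttcGAGttcttggga
XTH18: tgggatGAGattGATttcGAGttcttagga
XTH19: tgggatGAGattGATttcGAGtttttgggg
XTH20: tgggatGAAataGATtttGAGttcttggga
XTH22: tgggacGAGataGATttcGAGtttttaggg
XTH23: tgggacGAGattGACtttGAGttcttggga
XTH24: tgggatGAGattGATtttGAGttcttgggt
XTH25: tgggacGAAatcGATttcGAGtttcttggt
The 3 residues were coded in all 10 genes, with both synonymous codons in use for the first glutamate and for the aspartate. XTH4 and XTH9 lacked the tryptophan codon that opens the stretch in the other 8 genes.

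On the RefSeq annotation of TAIR10.1, XTH25 (chromosome 5, 23304782 to 23306440) and XTH22 (chromosome 5, 23307006 to 23308680) were neighbours on the minus strand with 565 bp between them. XTH24 (chromosome 4, 14819192 to 14820595), XTH18 (chromosome 4, 14825757 to 14827211) and XTH19 (chromosome 4, 14828712 to 14830224) followed each other on the minus strand with gaps of 5161 and 1500 bp and no annotated gene between them. XTH23 lay on chromosome 4 (13128394 to 13129927, plus strand), 363 bp before XTH14. The other 4 stood alone: XTH4 on chromosome 2 (2763449 to 2765743), XTH9 on chromosome 4 (1415617 to 1417444), XTH17 on chromosome 1 (24257054 to 24258506) and XTH20 on chromosome 5 (19481897 to 19483527), all on the plus strand. The predicted proteins of XTH17 and XTH18 were 93.3% identical, those of XTH18 and XTH19 92.1%, and XTH20 was 84.0 to 84.8% identical to these 3. XTH22 was 84.0% identical to XTH23. The longest unbroken run shared by 2 of the 10 transcripts was 68 nt, between XTH18 and XTH19. Reads trimmed short enough to lie inside such runs could have been split between close relatives. How many there were is unknown, and values of XTH17, XTH18 and XTH19 are to that extent uncertain.

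The 250 bases before the annotated start of XTH17 and XTH18, which lie on different chromosomes, ended in the same run of 73 bases, shown in capitals (chr1:24256804-24257053, plus strand, and chr4:14827212-14827461, minus strand). The pair is shown because no other pair of the 10 genes shared more than 11 bases in this window.
XTH17: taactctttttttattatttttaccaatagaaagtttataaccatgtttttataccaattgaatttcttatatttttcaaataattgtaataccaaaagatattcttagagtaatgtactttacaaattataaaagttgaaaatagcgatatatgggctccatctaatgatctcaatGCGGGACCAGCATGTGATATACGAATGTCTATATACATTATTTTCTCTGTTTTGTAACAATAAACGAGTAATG
XTH18: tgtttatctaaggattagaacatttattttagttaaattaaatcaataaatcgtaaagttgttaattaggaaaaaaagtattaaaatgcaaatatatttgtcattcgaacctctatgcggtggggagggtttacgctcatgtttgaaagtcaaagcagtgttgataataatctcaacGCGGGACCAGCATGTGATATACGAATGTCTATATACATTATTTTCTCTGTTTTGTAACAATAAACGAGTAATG
Motifs were searched on both strands of the same window in 27443 protein coding genes. CGTGTG, known as a brassinosteroid response element, was found before XTH23 and XTH25 and in 5.37% of all windows. CGCGTT, the core bound by calmodulin-binding CAMTA factors, was found before XTH18 and XTH20 and in 2.59%, and ACCGAC, the dehydration-responsive element, before XTH20 and in 4.70%. None of the 10 genes had a match to the G-box CACGTG, which 6.49% of all windows held, to CGTGCG, a further brassinosteroid response element (1.57%), to the GCC box of ethylene response factors, spelled GCCGCC (1.87%), or to ATGTANCT, bound by the ethylene factor EIN3 (3.63%). The windows of XTH25 (chr5:23306441-23306690, minus strand) and XTH20 (chr5:19481647-19481896, plus strand) are shown with these matches in capitals, since these were the genes listed near 0 in roots and in shoots respectively.
XTH25: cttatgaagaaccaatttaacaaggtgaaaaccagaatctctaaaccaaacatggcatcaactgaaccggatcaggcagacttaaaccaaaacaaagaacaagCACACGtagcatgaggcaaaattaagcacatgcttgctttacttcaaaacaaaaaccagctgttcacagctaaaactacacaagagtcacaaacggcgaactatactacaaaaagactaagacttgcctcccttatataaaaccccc
XTH20: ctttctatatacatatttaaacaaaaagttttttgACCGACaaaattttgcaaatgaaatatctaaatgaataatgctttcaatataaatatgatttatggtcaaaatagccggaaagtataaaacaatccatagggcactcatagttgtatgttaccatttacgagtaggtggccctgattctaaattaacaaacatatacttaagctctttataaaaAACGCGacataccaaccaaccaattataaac
A match is a string of letters and not a tested binding site.

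The number of reads behind an FPKM value is unknown, so that precision rests on the spread of 3 libraries. Between 14470 and 17212 genes reached 1 FPKM in a library. Summed FPKM of 4 shoot marker genes ran from 6967 to 15667 in shoots and from 153 to 309 in roots, and that of 6 root markers from 2.15 to 6.46 in shoots and from 127 to 1109 in roots, where PYK10 was listed at 0 in 1 KMBA library. The WT shoot libraries resembled each other less than those of any other group: their lowest correlation with a library of the same group was 0.937 to 0.969 in WT and 0.979 to 0.989 elsewhere (across genes, on the log2 scale). WT replicates 1 and 3 stood apart from the other shoots in the slope of expression on transcript length (-0.116 and -0.371, against 0.0202 in WT replicate 2 and -0.0436 to 0.109 in the other shoots). All 3 WT libraries had higher lowest values: the fifth percentile of FPKM times transcript length in kb, over genes of medium length above 0, was 0.115 to 0.136 in WT and 0.0356 to 0.0581 in the other shoots. The part of these features in the differences from WT was not tested beyond leaving out single libraries and subtracting the length and GC trend. WT and SA187 libraries were all in sequencing pool 1, ACC shoots 2 and 3 and KMBA shoot 3 were in pool 3, and each root group had a pool of its own. Fewer cells of a type and less RNA per cell cannot be told apart in such bulk samples.

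XTH22 had the highest level of all 33 XTH genes in every shoot group. XTH24 had it in KMBA roots (109.8 ± 17.0 FPKM), and in ACC roots XTH24 (71.2 ± 13.6 FPKM) led the 10 genes but stood below XTH31 (79.5 ± 3.57 FPKM). Summed over the 33 genes, XTH transcripts reached 1838 ± 571 FPKM in WT shoots (mean ± SD, n = 3 here and below), 1088 ± 104 with SA187, 1163.5 ± 210.2 with KMBA and 1099 ± 297 with ACC, and 609 ± 25.5 in KMBA and 557 ± 32.0 in ACC roots. The 10 genes made up 86.6% ± 2.73 of this sum in WT shoots, 76.3 to 77.9% in the treated shoots, 60.97% ± 0.705 in KMBA roots and 47.8% ± 1.27 in ACC roots. XTH22 alone held 54.9% ± 6.46 in WT shoots and 40.2% ± 1.84, 34.7% ± 3.99 and 29.0% ± 8.61 with SA187, KMBA and ACC, but 2.16% ± 0.141 and 1.61% ± 0.149 in KMBA and ACC roots.

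**Figure D1:**
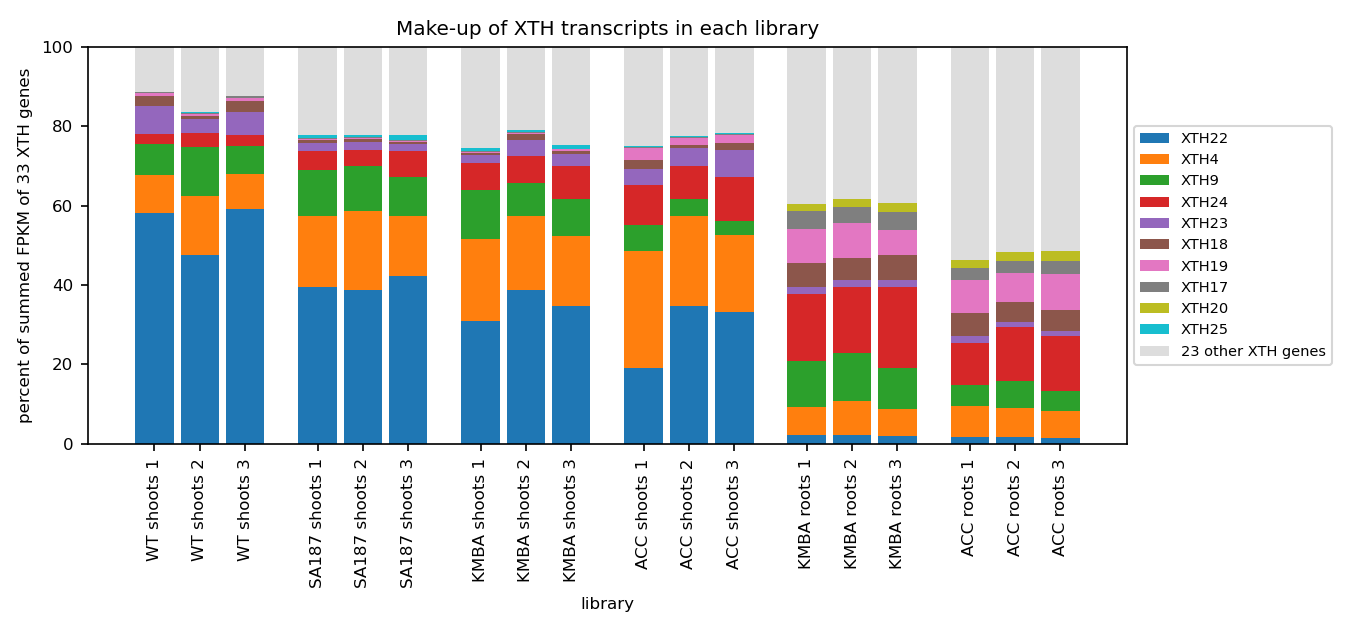
Each bar is 1 library and is divided into the percent of the summed FPKM of 33 XTH genes that each of the 10 described genes (colours) and the other 23 genes (grey) made up. XTH22 takes 47.5 to 59.2% in the WT shoots and at most 2.26% in a root library, where the grey genes and XTH24 take the largest parts.

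In WT shoots the order of mean levels was XTH22, XTH4, XTH9, XTH23, XTH24, XTH18, XTH19, XTH17, XTH25 and XTH20, and from XTH4 down to XTH17 each gene overlapped the next in its libraries. In SA187 shoots the order was XTH22, XTH4, XTH9, XTH24, XTH23, XTH25, XTH18, XTH19, XTH17 and XTH20, and there only XTH25 and XTH18 overlapped as neighbours. In KMBA shoots it differed from SA187 only in that XTH18 stood above XTH25, and these again overlapped. With ACC, XTH22 overlapped XTH4, and XTH24, XTH23 and XTH9 followed, each overlapping the next. In KMBA roots the order was XTH24, XTH9, XTH19, XTH4, XTH18, XTH17, XTH22, XTH20, XTH23 and XTH25. There XTH20 overlapped both XTH22 and XTH23, while every XTH22 library lay above every XTH23 library. In ACC roots XTH9 stood below XTH19 and XTH4 and overlapped XTH18. FPKM is scaled by transcript length, so these are comparisons of levels per length.

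**Figure D2:**
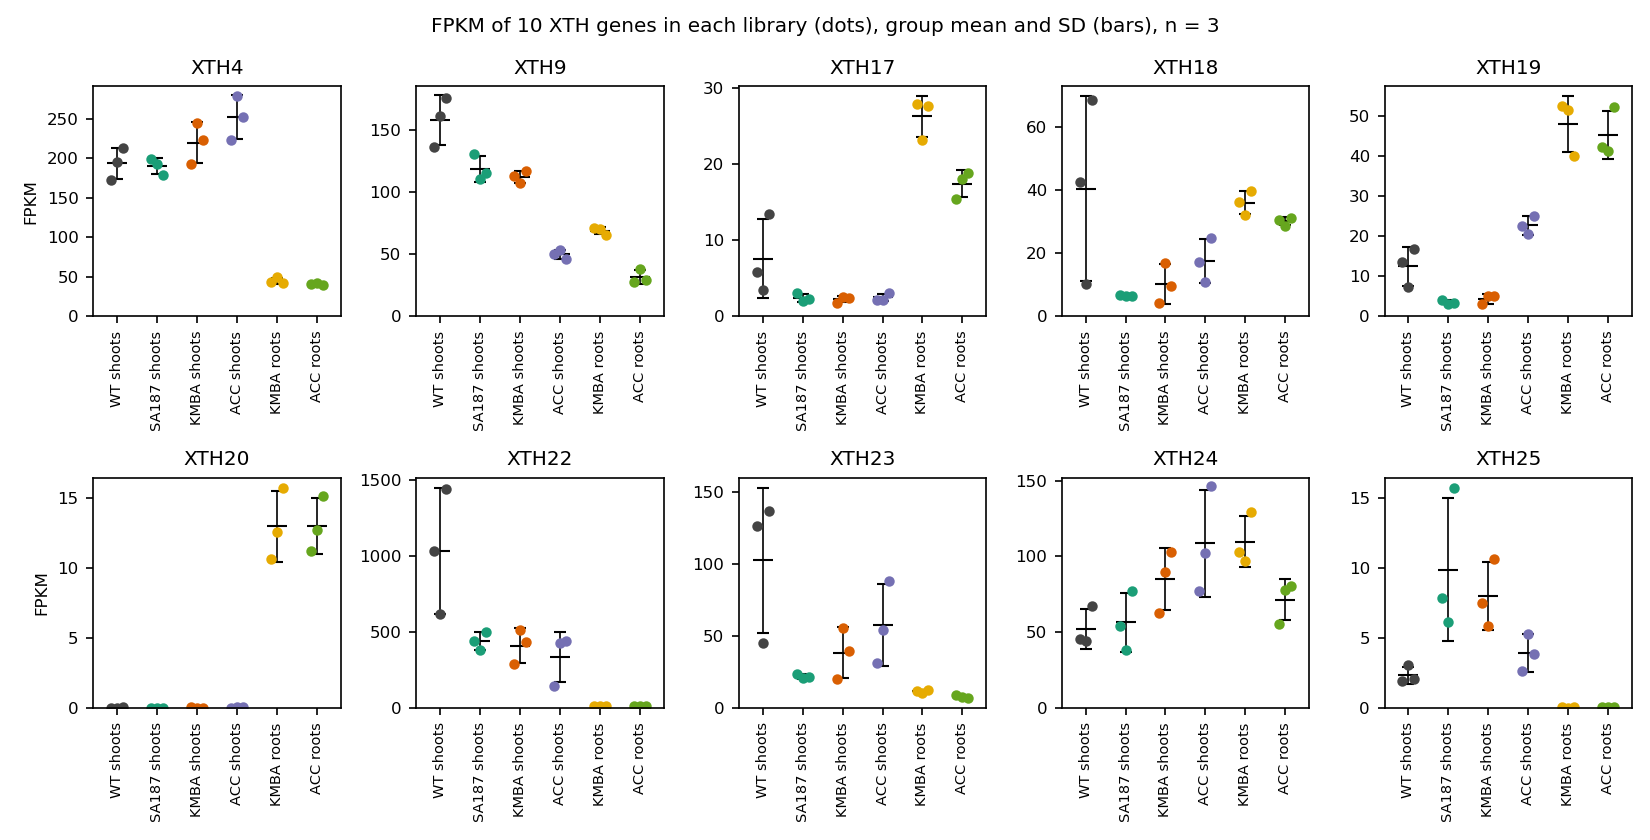
Dots are the FPKM of single libraries, and bars the mean and SD of each group of 3, for the 10 genes on linear axes that start at 0. WT shoots stand highest for XTH22, XTH23, XTH18 and XTH9, SA187 and KMBA shoots for XTH25, and roots for XTH17, XTH19 and XTH20.

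XTH22, the touch gene TCH4, was higher in WT shoots than in any other group. Its FPKM was 1033, 617 and 1442 in WT replicates 1, 2 and 3, 439.6, 377 and 497 with SA187, 284, 509 and 434 with KMBA, and 145, 424 and 437 with ACC. All 3 WT libraries lay above all 9 treated shoot libraries, which overlapped among themselves. On the log2(FPKM + 1) scale, on which all differences below are given, it differed from WT by -1.16 ± 0.41 (SE) with SA187, -1.29 ± 0.41 with KMBA and -1.70 ± 0.41 with ACC. The treated groups were each set against the same 3 WT libraries, so these 3 differences share them. Without WT replicate 3, the highest library, the differences were -0.87, -1.004 and -1.41, and without ACC replicate 1, the lowest, the difference with ACC was -1.18.

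The touch calmodulins were set beside XTH22 as a list of 4 genes, since calmodulins and XTH22 were found together as touch genes, and 2 of the 4 fell in each comparison with WT. Among all genes tested in shoots, 1.38%, 2.43% and 2.91% were called lower with SA187, KMBA and ACC. CML24 (TCH2) measured 526, 283 and 688 FPKM in WT and 140 ± 22.6, 93.3 ± 13.0 and 78.5 ± 18.5 with SA187, KMBA and ACC. It fell with SA187 (log2 difference -1.75 ± 0.28, limma adjusted p = 0.0125), KMBA (-2.32, limma adjusted p = 0.00208) and ACC (-2.59, limma adjusted p = 0.000172). CML23, its near relative, fell as well, by 1.85, 1.98 and 1.72 on the log2 scale (limma adjusted p = 0.0101, 0.00343 and 0.00129), and CML12 (TCH3) and CAM2 (TCH1) did not pass. The difference of CML12 with KMBA was -0.84, and without WT replicate 2 it passed (-1.09, limma adjusted p = 0.00632). With SA187 the call of CML24 was lost without SA187 replicate 2, without SA187 replicate 3 or without WT replicate 1 (limma adjusted p = 0.0516, 0.0706 and 0.052), and that of CML23 without SA187 replicate 3 (limma adjusted p = 0.0618). Both calls with SA187 were also lost when only these 2 groups were fitted (limma adjusted p = 0.0799 for CML24 and 0.0655 for CML23). XTH22 and CML24 shared the order of the WT libraries, with replicate 3 highest and replicate 2 lowest, and ACC replicate 1 was the lowest ACC library for both. The part of these genes' common movement in the XTH22 difference was not tested.

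XTH23, the closest relative of XTH22 among the 10, measured 126, 44.9 and 137 FPKM in WT shoots, 23.8, 20.6 and 21.2 with SA187, 20.1, 55.4 and 39.6 with KMBA, and 31.0, 54.0 and 88.2 with ACC. SA187 libraries lay below every WT library, whereas WT replicate 2 fell inside the range of the KMBA and ACC libraries. The differences from WT were -2.03 ± 0.46, -1.35 ± 0.46 and -0.79 ± 0.46 with SA187, KMBA and ACC, and -2.54, -1.86 and -1.30 without WT replicate 2. With the sequencing pool in the model the difference with ACC was -1.24.

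XTH25 stood on the other side. This neighbour of XTH22, 69.0% identical to it in protein, measured 1.91, 3.02 and 2.02 FPKM in WT shoots, 7.86, 6.10 and 15.7 with SA187, 7.51, 5.84 and 10.6 with KMBA, and 2.62, 5.27 and 3.85 with ACC. SA187 and KMBA libraries all lay above WT and above ACC, while ACC overlapped WT. Its differences from WT were 1.63 ± 0.30 with SA187, 1.42 ± 0.30 with KMBA and 0.55 ± 0.30 with ACC. SA187 replicate 3 was the highest library, and without it the difference with SA187 was 1.27. The mean of XTH25 was 4.27 and 3.45 times its WT mean with SA187 and KMBA, where that of XTH22, 565 bp away on the same strand, was 0.425 and 0.397 of its WT mean.

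XTH24, known as MERI5 from meristems, was lowest in WT and SA187 shoots and higher with either compound. FPKM was 45.2, 43.8 and 67.1 in WT, 54.1, 38.3 and 76.8 with SA187, 62.9, 90.001 and 102.9 with KMBA, and 76.9, 102.2 and 146.7 with ACC. Only the ACC libraries lay wholly above WT (difference 1.02 ± 0.29), and SA187 and KMBA overlapped WT (0.09 ± 0.29 and 0.70 ± 0.29). With the sequencing pool in the model the ACC difference was 0.66, and without ACC replicate 3 it was 0.79.

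Of the genes best known from the root, XTH17, XTH18 and XTH19 were all lower with SA187 than in any WT shoot library. The mean of XTH18 was 40.3 FPKM in WT shoots, 35.9 in KMBA roots and 30.1 in ACC roots. No root library with salt alone was there to set against the WT shoots. Within a treatment XTH18 stood higher in roots, at 35.9 against 10.2 FPKM with KMBA and 30.1 against 17.5 with ACC. XTH17 measured 5.84, 3.43 and 13.5 FPKM in WT and 1.80 to 3.03 in the 9 treated shoots, none of which reached the lowest WT library. Its differences from WT were -1.16 ± 0.32, -1.25 ± 0.32 and -1.14 ± 0.32 with SA187, KMBA and ACC, and without WT replicate 3 they were -0.70, -0.78 and -0.68. XTH18 varied most within WT, at 42.4, 10.1 and 68.5 FPKM, and measured 6.85, 6.30 and 6.32 with SA187, 4.25, 16.8 and 9.45 with KMBA and 17.2, 10.8 and 24.6 with ACC. Its difference was -2.11 ± 0.58 with SA187, where no library overlapped WT, and -1.70 ± 0.58 and -0.87 ± 0.58 with KMBA and ACC, which overlapped WT replicate 2. Without that library the 3 differences were -2.87, -2.47 and -1.64, and without WT replicate 3 the difference with ACC was -0.32.

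XTH19 parted from its close relatives with ACC. It measured 13.5, 7.21 and 16.7 FPKM in WT, 4.08, 3.08 and 3.35 with SA187, 2.97, 5.07 and 5.01 with KMBA, and 22.5, 20.5 and 25.1 with ACC. The 4 groups fell into 3 levels, with ACC above WT, WT above KMBA and SA187, and the last pair overlapping. Differences from WT were -1.51 ± 0.25 with SA187, -1.29 ± 0.25 with KMBA and 0.88 ± 0.25 with ACC. XTH20, the remaining gene of this group, was listed at 0 in 8 of the 12 shoot libraries and reached at most 0.0432 FPKM in the others, so that it did not enter the shoot comparisons.

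XTH9 was lowest with ACC. Its FPKM was 136, 161 and 176 in WT, 129.97, 110.2 and 115 with SA187, 112, 107 and 116 with KMBA, and 49.8, 53.4 and 46.0 with ACC. ACC libraries lay below all others, the SA187 and KMBA libraries overlapped and lay below WT, and replicates agreed closely, with an SD of 19.9 or less. The differences from WT were -0.41 ± 0.12, -0.48 ± 0.12 and -1.64 ± 0.12 with SA187, KMBA and ACC, and leaving out single libraries kept the difference with ACC between -1.74 and -1.56. XTH4, the second most abundant XTH gene in shoots, moved least: 173, 195 and 213 FPKM in WT, 199, 193 and 179 with SA187, 192, 244 and 224 with KMBA, and 224, 279 and 253 with ACC. The ACC libraries lay above WT by 0.38 ± 0.13, and the other groups overlapped WT.

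**Figure D3:**
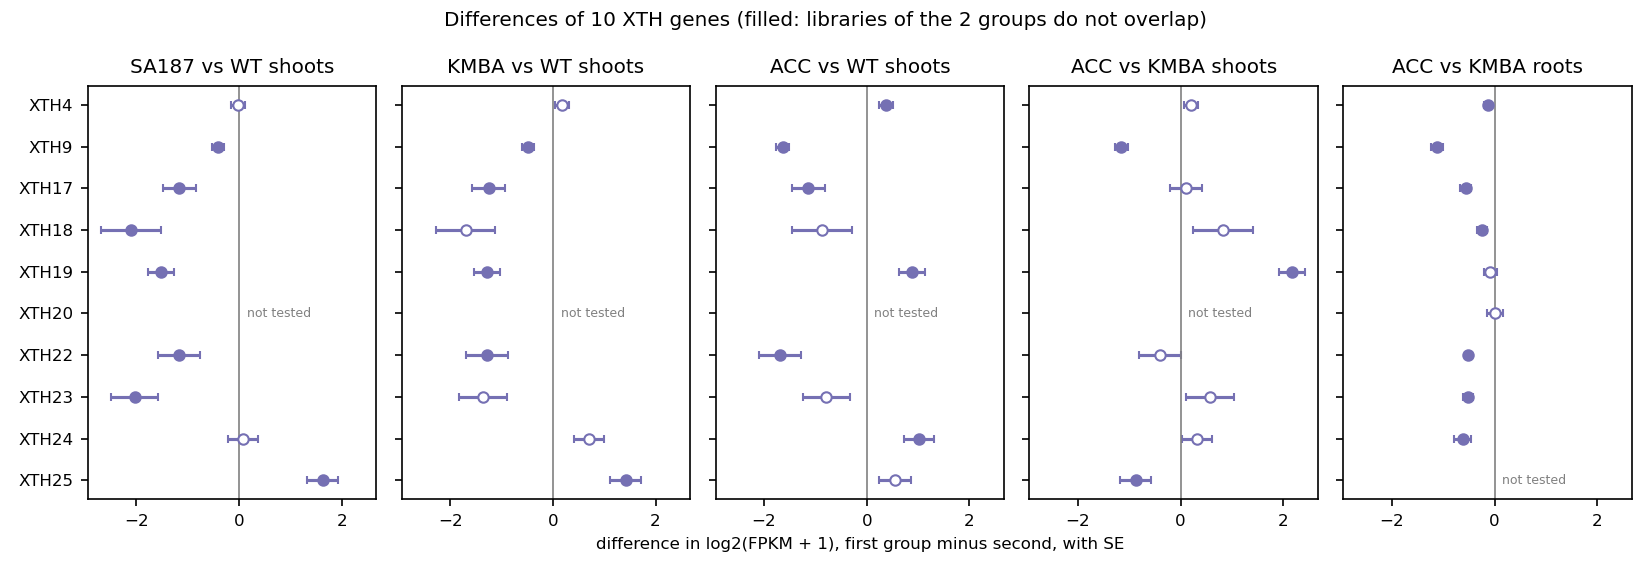
Points are differences in log2(FPKM + 1) with their SE for the 10 genes in 5 comparisons of 3 against 3 libraries, filled where the libraries of the groups do not overlap. XTH25 stands to the right of 0 with SA187 and KMBA, XTH9 stands near -1 for ACC against KMBA in shoots and in roots, and XTH19 stands at 2.17 in shoots and -0.08 in roots.

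The calls that go with these differences (limma adjusted p below 0.05 and a fold above 2) are counted here beside their share among all genes, and no weight is put on them because the genes were selected on the same values. Of the 9 genes tested, 1 was called higher (XTH25) and 2 lower (XTH19 and XTH23) with SA187, where 0.235% of all tested genes were called higher and 1.38% lower. With KMBA 1 was called higher (XTH25) and 3 lower (XTH17, XTH19 and XTH22), against 0.655% and 2.43% of all genes. With ACC 1 was called higher (XTH24) and 3 lower (XTH9, XTH17 and XTH22), against 1.98% and 2.91%. The median difference of the 9 genes was -1.16, -1.25 and -0.79 with SA187, KMBA and ACC, and that of all genes -0.02, 0.00 and 0.06. Leaving out WT replicate 1 ended all 3 calls with SA187, as did leaving out SA187 replicate 3, whereas leaving out WT replicate 2 gave 6 calls with SA187, 6 with KMBA and 5 with ACC. With the length and GC trend subtracted, 4 genes were called with SA187 and 2 with KMBA. With ACC 4 were called, of which 1 was new, and 1 earlier call was lost.

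ACC and KMBA, 2 compounds that plants can use to form ethylene, were supplied at the same dose and for the same time, and differed most for XTH19 and XTH9. XTH19 in shoots was 5.22 times as high with ACC as with KMBA (22.7 ± 2.28 against 4.35 ± 1.19 FPKM, difference 2.17 ± 0.25), and no library overlapped. In roots XTH19 measured 42.4, 41.3 and 52.4 FPKM with ACC and 52.6, 51.6 and 40.1 with KMBA, which overlapped (difference -0.08 ± 0.13). XTH9 was lower with ACC in both organs: 0.444 of the KMBA level in shoots (difference -1.16 ± 0.12) and 0.458 of it in roots, where FPKM was 27.2, 37.8 and 29.2 with ACC and 70.5, 70.1 and 65.2 with KMBA (difference -1.12 ± 0.12). XTH25 was lower with ACC in shoots by 0.87 ± 0.30 without overlap, and the ACC libraries of XTH22, XTH23, XTH18, XTH17, XTH24 and XTH4 overlapped those of KMBA. In all, 1 of 9 genes was called higher with ACC than with KMBA in shoots and 1 lower, where 0.502% and 0.293% of all genes were called.

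In roots 7 of the 9 genes tested lay lower with ACC than with KMBA in every library: XTH4, XTH9, XTH17, XTH18, XTH22, XTH23 and XTH24. Among all genes tested in roots, 18.6% lay lower with ACC in every library and 20.5% higher. XTH17 measured 15.5, 18.04 and 18.9 FPKM with ACC and 27.9, 23.2 and 27.7 with KMBA (difference -0.56 ± 0.10). XTH24 measured 55.6, 77.8 and 80.3 with ACC and 103.2, 97.0 and 129.1 with KMBA (-0.62 ± 0.17). XTH22 measured 9.01, 9.36 and 8.37 with ACC and 13.9, 12.9 and 12.7 with KMBA (-0.51 ± 0.07). XTH20, listed near 0 in shoots, measured 11.2, 12.7 and 15.2 with ACC and 10.7, 12.6 and 15.7 with KMBA (0.01 ± 0.15). XTH9 was the 1 gene of the 9 that was called, and it was lower, while 0.687% of all genes were called lower and 0.571% higher. Each root group was sequenced in a pool of its own, so that compound and pool cannot be told apart.

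Roots and shoots of the same treatment were never in the same sequencing pool. Organ and pool therefore cannot be told apart here or in the organ comparisons below. On the log2(FPKM + 1) scale, roots and shoots of the same treatment differed most for XTH22. It measured 145 to 437 FPKM in ACC shoots and 8.37 to 9.36 in ACC roots (difference -4.92 ± 0.34), and 284 to 509 against 12.7 to 13.9 with KMBA (-4.82 ± 0.34). XTH23 and XTH4 followed the same direction, with root differences of -2.63 ± 0.36 and -2.59 ± 0.11 for ACC and of -1.55 ± 0.36 and -2.26 ± 0.11 for KMBA. XTH25 reached at most 0.0456 FPKM in any root library, against 2.62 to 10.6 in the shoots of these treatments. XTH20 was its mirror image, at 10.7 to 15.7 FPKM in roots and at most 0.0432 in these shoots.

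XTH17 was higher in roots by 2.42 ± 0.12 with ACC and by 3.09 ± 0.12 with KMBA. For XTH19 the root excess was 3.21 ± 0.17 with KMBA, from 4.35 ± 1.19 to 48.1 ± 6.91 FPKM, but 0.96 ± 0.17 with ACC, from 22.7 ± 2.28 to 45.3 ± 6.10 FPKM. XTH18 stood higher in roots by 0.81 ± 0.36 with ACC and 1.89 ± 0.36 with KMBA, with no overlap in either. The median of all genes was itself higher in roots, by 0.365 with ACC and 0.403 with KMBA, and 0.015 and 0.014 after median-ratio scaling. After that scaling the root difference of XTH9 was -1.07 and -1.18 in place of -0.66 and -0.70, and XTH24, whose libraries overlapped between organs, went from 0.38 to -0.10 with KMBA and from -0.57 to -0.99 with ACC. With ACC 2 of the 10 genes were called higher in roots and 4 lower, and with KMBA 4 higher and 4 lower. Among all genes 22.7% were called higher and 13.9% lower with ACC and 24.7% higher and 13.5% lower with KMBA, a split of 4165 to 2553 and 4537 to 2477 genes that became 3027 to 3169 and 3325 to 3183 after scaling.

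**Figure D4:**
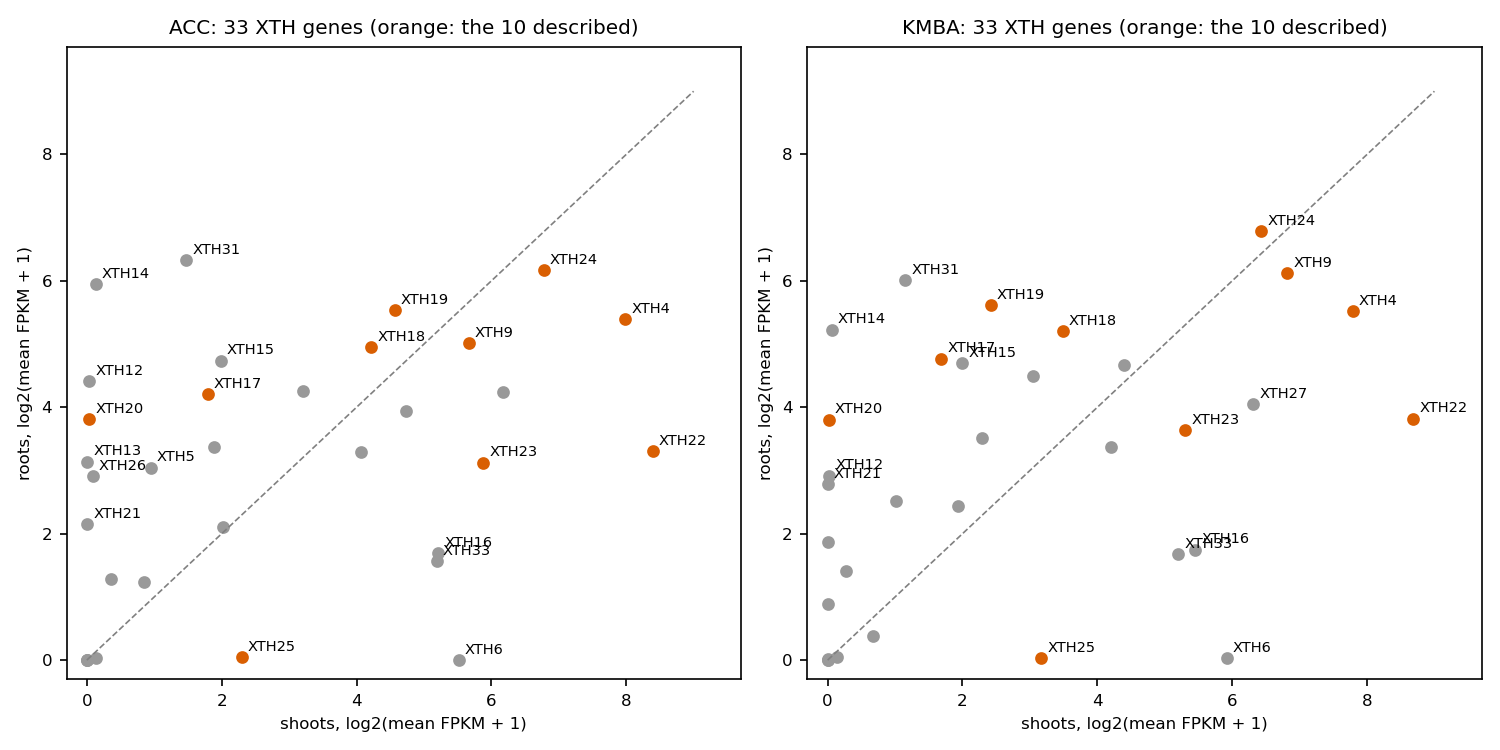
Each point is 1 of 33 XTH genes, with its mean level in shoots on the horizontal and in roots on the vertical axis, both as log2(mean FPKM + 1), for ACC (left) and KMBA (right), and the dashed line marks equal levels. XTH22, XTH23, XTH4 and XTH25 lie below the line, XTH17 and XTH20 above it, and XTH19 lies farther above it with KMBA than with ACC.

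The 23 other XTH genes were tested as those left after the described genes had been selected on the same FPKM values. That choice also fixed which genes remained, so the p-values and counts of these 23 genes are not those of an unselected set. Of the 12 that reached the filter in shoots, XTH31, which encodes a member known for its hydrolase activity, fell with all 3 treatments: from 7.54, 2.83 and 6.63 FPKM in WT to 2.32, 2.17 and 1.17 with SA187 (log2 difference -1.15 ± 0.27, limma adjusted p = 0.0334), to 1.21 ± 0.291 with KMBA (-1.52, limma adjusted p = 0.00672) and to 1.78 ± 0.514 with ACC (-1.20, limma adjusted p = 0.00688). The call with SA187 was lost without WT replicate 1, WT replicate 3, SA187 replicate 2 or SA187 replicate 3 (limma adjusted p from 0.0898 to 0.126), with no filter (limma adjusted p = 0.0656) and with only these 2 groups fitted (limma adjusted p = 0.124), and that with ACC without WT replicate 1 (difference -0.98).

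XTH7 rose with KMBA and with ACC, from 7.94, 8.29 and 8.12 FPKM in WT to 17.5, 16.8 and 25.9 (1.18 ± 0.15, limma adjusted p = 0.0025) and to 27.2, 22.0 and 27.7 (1.54 ± 0.15, limma adjusted p = 0.000133). Without KMBA replicate 3 the first difference was 0.99. With SA187 XTH7 measured 17.0, 15.1 and 17.0 FPKM, above every WT library, and its difference of 0.93 ± 0.15 was under the fold of 2 (limma adjusted p = 0.0134), whereas it passed with a pseudocount of 0.1 and with the length and GC trend subtracted (1.001 and 1.01). XTH6 rose with KMBA from 19.6, 25.6 and 38.2 to 52.2, 55.2 and 71.0 FPKM (1.11 ± 0.27, limma adjusted p = 0.0191), a call that was lost without KMBA replicate 2, KMBA replicate 3 or WT replicate 1 (limma adjusted p from 0.0566 to 0.0658) and with the sequencing pool in the model (0.93, under a fold of 2). With SA187 XTH6 measured 53.1, 37.3 and 65.3 FPKM and its difference of 0.89 did not pass. It passed with the length and GC trend subtracted (1.05, limma adjusted p = 0.0254) and without WT replicate 3 (1.14, limma adjusted p = 0.0492). Thus 1 of 12 genes fell with SA187 and 0 rose, 2 rose and 1 fell with KMBA, and 1 rose and 1 fell with ACC. An unadjusted p below 0.05 in limma was found for 7, 8 and 10 of the 12 with SA187, KMBA and ACC. The share of all genes at that unadjusted p was not counted, so these counts are not read as a result about XTH genes. Among all genes tested in shoots, 0.235%, 0.655% and 1.98% were called higher with SA187, KMBA and ACC, and 1.38%, 2.43% and 2.91% lower. Between ACC and KMBA shoots limma called 0 of 12, and 1 had an unadjusted p below 0.05.

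Between the root groups 3 of 18 tested genes rose with ACC over KMBA: XTH26, known from root hairs, from 1.08, 0.385 and 1.07 to 6.66, 6.69 and 6.17 FPKM (2.05 ± 0.16, limma adjusted p = 0.000736), XTH12 from 8.15, 4.13 and 7.40 to 16.6, 20.5 and 23.7 (1.52 ± 0.23, limma adjusted p = 0.00641), and XTH13 from 3.28, 2.06 and 2.59 to 7.63, 8.37 and 7.47 (1.29 ± 0.12, limma adjusted p = 0.00167). Among all genes tested in roots, 0.571% were called higher with ACC than with KMBA and 0.687% lower. XTH12 and XTH13 lie in the same chromosome 5 cluster as XTH25 and XTH22, which were listed near 0 and lower with ACC in these roots. Against shoots, 10 of 19 other XTH genes rose in roots and 4 fell, with either compound. Among all genes 22.7% were called higher in roots and 13.9% lower with ACC, and 24.7% and 13.5% with KMBA. Roots were higher for XTH31 (79.5 ± 3.57 against 1.78 ± 0.514 FPKM with ACC, limma adjusted p = 2.5e-12), XTH14 (60.9 ± 2.03 against 0.0944 ± 0.0477), XTH15, XTH12, XTH13, XTH21, XTH5 and XTH30, and for XTH8. XTH26 was called higher with ACC and XTH10 with KMBA. XTH6, XTH16, XTH27 and XTH33 were lower in roots, and XTH6 was listed at 0 in all 3 ACC root libraries against 44.7 ± 11.6 FPKM in ACC shoots. After median-ratio scaling XTH8 with ACC and XTH10 and XTH30 with KMBA were no longer called, XTH7 and XTH28 were called lower with ACC and XTH28 with KMBA, and the counts became 9 higher and 6 lower with ACC and 8 higher and 5 lower with KMBA. XTH8 with ACC was also lost without ACC shoot replicate 3 (0.94).

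Genes that make or trim xyloglucan, and expansins, which loosen walls without cutting chains, were fixed as lists beside the XTH genes. For comparison, 1.98% of all genes tested in shoots were called higher with ACC over WT and 2.91% lower. Of 13 xyloglucan synthesis genes tested in shoots, 2 rose with ACC over WT: MUR3, a galactosyltransferase of xyloglucan side chains, from 17.1 ± 1.61 to 36.6 ± 4.16 FPKM (1.05 ± 0.12, limma adjusted p = 0.000268) and XLT2, another such enzyme, from 33.1 ± 9.75 to 69.4 ± 19.9 (1.05 ± 0.22, limma adjusted p = 0.00499). Both fell under a fold of 2 after median-ratio scaling (0.99 for each), without ACC replicate 3 (0.97 and 0.85) and without WT replicate 3 (0.98 and 0.81). With the pool in the model they were 0.996 and 0.83, and with the length and GC trend subtracted 0.74 and 0.85. The list had 0 limma calls with SA187 and with KMBA (4 and 5 genes with an unadjusted p below 0.05), and the 4 trimming genes had 0 limma calls against WT (1, 2 and 3 with an unadjusted p below 0.05 for SA187, KMBA and ACC). Of 18 expansins tested in shoots, EXPA1 rose with ACC over WT (59.5 ± 8.61 against 24.015 ± 0.582 FPKM, 1.26 ± 0.12, limma adjusted p = 0.000101) and over KMBA (1.31 ± 0.12, limma adjusted p = 0.000686). EXLA3 fell with all 3 treatments, from 2.92 ± 0.869 FPKM in WT to 0.673 ± 0.0584, 0.609 ± 0.171 and 0.875 ± 0.518 with SA187, KMBA and ACC (limma adjusted p = 0.0125, 0.00428 and 0.00225), and its call with SA187 was lost without SA187 replicate 3 and with only these 2 groups fitted (limma adjusted p = 0.0699 and 0.0579) and, with ACC, without WT replicate 1, without ACC replicate 2 or with the length and GC trend subtracted (differences -0.91, -0.92 and -0.94). Of the 8 brassinosteroid genes tested in shoots, limma called 0 against WT, and 0, 4 and 6 had an unadjusted p below 0.05 with SA187, KMBA and ACC. Between the root groups limma called 0 genes of these lists, with an unadjusted p below 0.05 for 4 of 13 synthesis genes and 14 of 20 expansins. The share of all tested genes with an unadjusted p below 0.05 was not counted. None of these unadjusted counts is therefore read as a result about a list.

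Between organs 12 of 23 expansins rose in roots with either compound, and 7 fell with ACC and 6 with KMBA. The shares of all genes called higher and lower in roots were 22.7% and 13.9% with ACC and 24.7% and 13.5% with KMBA. The lowest p with ACC was that of EXPB3 (37.7 ± 3.96 FPKM in ACC roots against 1.39 ± 0.141 in ACC shoots), followed by EXPA17 and by EXPA7, known from root hairs (16.8 ± 1.52 against 0.0334 ± 0.0116). Among the xyloglucan synthesis genes CSLC4, a glucan backbone synthase, and XLT2 fell in ACC roots (from 60.2 ± 4.19 to 9.96 ± 0.221 FPKM and from 69.4 ± 19.9 to 13.9 ± 2.03 FPKM), and XXT3, a xylosyltransferase, rose (from 1.52 to 4.24 FPKM). Of the brassinosteroid genes ROT3 rose in ACC roots (from 0.200 ± 0.0285 to 4.56 ± 0.531 FPKM), and CPD, a synthesis gene, fell (from 12.9 ± 0.452 to 2.86 ± 0.123 FPKM). By count, 2 of 13 xyloglucan synthesis genes were called higher in roots and 3 lower with ACC, and 1 and 3 with KMBA. For the 10 brassinosteroid genes tested the counts were 2 and 2 with ACC and 3 and 2 with KMBA. Of the 4 touch calmodulins 1 was called higher and 2 lower with either compound.

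The genes whose log2 levels ran most like a described gene over the 12 shoot libraries were found among 15723 tested genes, for those 8 of the 10 genes that averaged 5 FPKM or more in shoots. XTH22 was most like PHI-1 (Pearson r = 0.989, Spearman rho = 0.965) and RALFL22 (r = 0.978, rho = 0.895). XTH18 was most like BCB (r = 0.969, rho = 0.972) and CMPG2 (r = 0.968, rho = 0.979), and CMPG2 came second for XTH23 as well (r = 0.940, rho = 0.909), after AGP2 (r = 0.951, rho = 0.916). XTH19 ran with NAC102 (r = 0.974, rho = 0.944) and AT3G07195 (r = 0.962, rho = 0.958), and XTH9 with CB5-C (r = 0.976, rho = 0.944) and AT1G08230 (r = 0.967, rho = 0.958). XTH25 ran with the aquaporin gene PIP2B (r = 0.962, rho = 0.944) and AT4G38810 (r = 0.954, rho = 0.944), XTH24 with MEE50 (r = 0.942, rho = 0.937) and AT4G01000 (r = 0.939, rho = 0.895), and XTH4 with AT4G29310 (r = 0.905, rho = 0.769) and sks5 (r = 0.891, rho = 0.769). The 12 libraries form 4 groups and share the wide WT spread, so these values describe the pattern and are not tests.

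Among the described genes themselves XTH18 and XTH23 ran together most closely over the 12 shoot libraries (r = 0.931, rho = 0.930), with r = 0.860 in the 9 treated libraries, where XTH4 and XTH23 ran closer (r = 0.895). XTH22 and XTH23 had r = 0.696 over all 12 and 0.248 in the 9 treated libraries. XTH17 and XTH18, which share 73 bases before their start, had r = 0.838 and, in the treated libraries, 0.542. XTH9 and XTH19 ran in opposite directions in the treated libraries (r = -0.973), where ACC was lowest for one and highest for the other, and had r = -0.563 with WT included. XTH22 and XTH25, the neighbours on chromosome 5, had r = -0.310 over 12 and 0.601 over the 9 treated libraries.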

How the data were processed

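The authors deposited FPKM values, 1 per gene and library, made with Cufflinks 2.2.1 from reads that were checked with FastQC 0.11.5, trimmed with Trimmomatic 0.36 and aligned to TAIR10 with TopHat, per the labels. No scaling between libraries and no use of strand is given in the sources used here, and FPKM keeps no read count, so precision rests on 3 libraries per group. Groups and replicates were taken from the labels. A gene entered a fit when 3 or more of its libraries reached 1 FPKM. Testing was done on log2(FPKM + 1), which understates changes of low genes, by limma 3.58.1 in R 4.3.3 (eBayes with a trend, 2-sided, Benjamini-Hochberg over all tested genes), in 1 fit for the 4 shoot groups, 1 for the root groups and 1 for both organs with ACC and KMBA. The calling was also run on simulated data in which each gene had the same spread in every group. The wider spread of the WT libraries was not simulated, so that run does not bear on the comparisons with WT. A gene was called at an adjusted p under 0.05 and a fold over 2. The labels name 3 biological replicates per group.

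The 10 genes, the gene lists and the tests were chosen with earlier results of these data known. Named were the 10 genes, XTH6, which the study names, every other XTH gene called in a comparison described, genes with the lowest p from each list, and the 2 genes most like each described gene. Each fit was repeated with 0.1 as pseudocount, with all genes, after scaling by median ratios, with the 2 groups compared alone, with a term for sequencing pool, with a replicate block and without each library in turn. One further alternative was chosen after seeing the data, in which the dependence of each library on transcript length and GC content was removed (lowess span 0.3). Gene models and sequences came from TAIR10.1 (RefSeq), which matched 26703 of 27371 locus IDs. Figures were drawn with matplotlib in Python.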

Additional observations from a re-analysis of the deposited data

Results flagged for a closer look

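XTH32, which is none of the 10 genes, was drawn to attention because ACC stood above KMBA in every shoot library and below it in every root library. Its log2 differences were 0.09 in shoots (3.17, 2.98 and 3.04 FPKM with ACC, 2.81, 2.70 and 2.94 with KMBA) and -0.34 in roots (2.99, 3.34 and 3.55 with ACC, 4.24, 4.78 and 4.23 with KMBA). The difference between the organs was not tested.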

How the results depend on the processing

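Of 769 alternative values of the 10 genes' differences, 756 kept their sign, and the 13 that did not belonged to values of at most 0.41 on the log2 scale that were not called. Of 331 alternatives to the 28 called values, 291 were still called and 40 were not. All 40 losses were in comparisons with WT, and none was between ACC and KMBA or between organs. No weight is put on these calls, since the genes were selected on the same values. With the groups compared alone, 0 of 3 calls among the 10 genes were left for SA187 and 1 of 4 for KMBA.

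Over all genes 254 were called with SA187, and 140 with no filter, 10 with the 2 groups alone and 12 to 725 with single libraries left out. With KMBA 485 became 778 with a pseudocount of 0.1, 292 with the 2 groups alone and 279 to 987 with single libraries left out, and with ACC 769 became 1299 and 628 to 1216 under the first and the last of these. Between ACC and KMBA 125 became 51 to 120 without single shoot libraries, and 216 became 391 with a pseudocount of 0.1 in roots. Of the other XTH genes, 1 was called with SA187, and 2 with a pseudocount of 0.1, 0 with no filter, 0 with the 2 groups alone, 3 with the length and GC trend subtracted and 0 to 1 without single libraries. The 3 with KMBA became 1 to 4 and the 2 with ACC 1 to 3 without single libraries. The remaining counts over all genes and over the other XTH genes stayed within 1.5 times their value. Of the lists, the 2 touch calmodulins and 1 expansin called with SA187 became 0 with the 2 groups alone, and the 2 xyloglucan synthesis genes and 2 expansins with ACC became 0 to 4 and 1 to 4 over all alternatives. The causes were not tested. Subtracting the trend moved the split of higher and lower calls from 37 and 217 to 60 and 143 with SA187 and from 103 and 382 to 139 and 227 with KMBA. Same-numbered libraries deviated together with a lowest correlation of -0.17 to 0.062 between groups, so the numbers were not read as pairs, and a replicate block gave 279, 503, 781, 135, 224, 6720 and 7016 calls in the 7 comparisons.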
